A study of Mus musculus with 7 samples.

Results

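Aminoacyl-tRNA synthetases are the enzymes that load each transfer RNA (tRNA) with its amino acid. Their transcripts were taken from the deposited gene table of mouse quadriceps by symbol, as a capital letter followed by ars and, where present, 1 or 2, together with Eprs, Farsa and Farsb. The rule found 37 of the 53819 genes in the table. The 20 members whose symbol does not end in 2 were taken as cytosolic enzymes and the 17 ending in 2 as mitochondrial ones. The quadriceps came from wild-type C57BL/6J male mice injected in the tail vein, at 8 weeks of age, with 200 µl of AAV8, a viral vector whose tropism is for liver. The vector was AAV8-Alb-IGFBP1 in 3 libraries (the AAV8-IGFBP1 group) and AAV8-Alb-Null in 4 (the AAV8-Null group), and the muscle was taken 54 days later. IGFBP1 is a secreted protein that binds insulin-like growth factors, and the comparison asked how muscle differs under its overexpression. The labels number the replicates but do not say that each is a separate mouse, so p-values here rest on a spread between libraries that could be technical.

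Each synthetase joins an amino acid to its tRNA at the cost of ATP, and so sets the fidelity of translation before the ribosome is reached. The cytosolic and the mitochondrial ribosome draw on largely separate sets of enzymes, both encoded in the nucleus. Several cytosolic synthetases are held with scaffold proteins in a multi-synthetase complex, and many are known targets of ATF4, the transcription factor of the integrated stress response. Muscle depends on both sets, since contractile protein is made in the cytosol and subunits of the respiratory chain in mitochondria.

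The libraries held 38947493 to 51210391 counts. Igfbp1 itself had 0, 0, 0 and 8 counts in the AAV8-Null libraries and 202, 1425 and 142 in the AAV8-IGFBP1 libraries, in the direction of the labels. Which cells in the muscle sample these transcripts came from was not tested. Genes that mark skeletal muscle were abundant in every library, with summed levels of 72918 to 83408 CPM (counts scaled to library size) under AAV8-Null and 74445 to 84182 under AAV8-IGFBP1. Markers of several other cells and fibre types lay on one side of 0, and their part in the results was not tested. Below 0 in log2 fold change lay 7 of 7 slow fibre markers (summed 528 to 1673 CPM under AAV8-Null, then 201 to 710 under AAV8-IGFBP1), 8 of 8 tenocyte markers (175 to 405, then 81 to 326) and 6 of 6 fibroblast markers (545 to 939, then 331 to 613). So did 5 of 5 endothelial markers (164 to 207, then 164 to 175) and 6 of 6 macrophage markers (40.2 to 59.9, then 29.4 to 54). Of 4 tested satellite cell markers 3 lay below 0 (summed over all 4, 50.4 to 62.3, then 39.9 to 42.8). Only Sdc4 was called lower, at 24 to 36 and then 14 to 15.1 CPM (edgeR adjusted p = 0.0162), against 0.194% of all genes. Cdh15 lay the other way without overlap, at 17.8 to 19.8 and then 20.4 to 24.1 CPM (log2 fold change 0.22, edgeR adjusted p = 0.285). All 7 adipocyte markers lay above 0 (240 to 481, then 301 to 1463, highest in AAV8-IGFBP1 replicate 2). In bulk tissue, fewer cells of a type and less RNA per cell cannot be told apart.

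Of the 37 synthetase transcripts, Lars2, the mitochondrial leucyl-tRNA synthetase, rose 1.93-fold under AAV8-IGFBP1, and none of the other 36 passed the test. All 37 were measured deeply enough to be tested, and the lowest member, Pars2, had 86 to 129 counts per library. With edgeR's quasi-likelihood test and Benjamini-Hochberg adjustment over 14935 genes at a threshold of 0.05, 1 of 37 members (2.7%) was called higher and 0 lower. Among all genes tested, 0.362% were called higher, 0.194% lower and 0.556% in either direction. At an unadjusted p under 0.05 there were 2 members, Lars2 and the threonine enzyme Tars, and DESeq2 and limma-voom each called 0 of the 36 others. The share of all genes under that unadjusted cut was not read out, here or for the lists below.

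The 36 other members had log2 fold changes from -0.14 for Pars2 to 0.18 for Tars. Every one of their 95% intervals lay inside a 1.5-fold change in either direction, and 25 of 36 lay inside 1.2-fold. The widest bounds were 0.722-fold for Pars2, the mitochondrial prolyl enzyme, and 1.28-fold for Cars2, the mitochondrial cysteinyl enzyme. The median log2 fold change was 0.06 over the cytosolic members, of which 15 lay above 0 and 5 below. Over the mitochondrial members it was -0.01, with 8 above and 9 below. Over all genes tested it was -0.00, with 7449 above and 7486 below. The mean log2 CPM of the cytosolic members in AAV8-IGFBP1 replicate 2 lay within the range of the controls. In CPM, 3 of 37 members (8.11%) had groups that did not overlap, Lars2, Tars and Qars, each higher under AAV8-IGFBP1. That was so for 6.33% of all genes in this direction, for 6.01% in the other and for 12.3% in either.

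**Figure D1:**
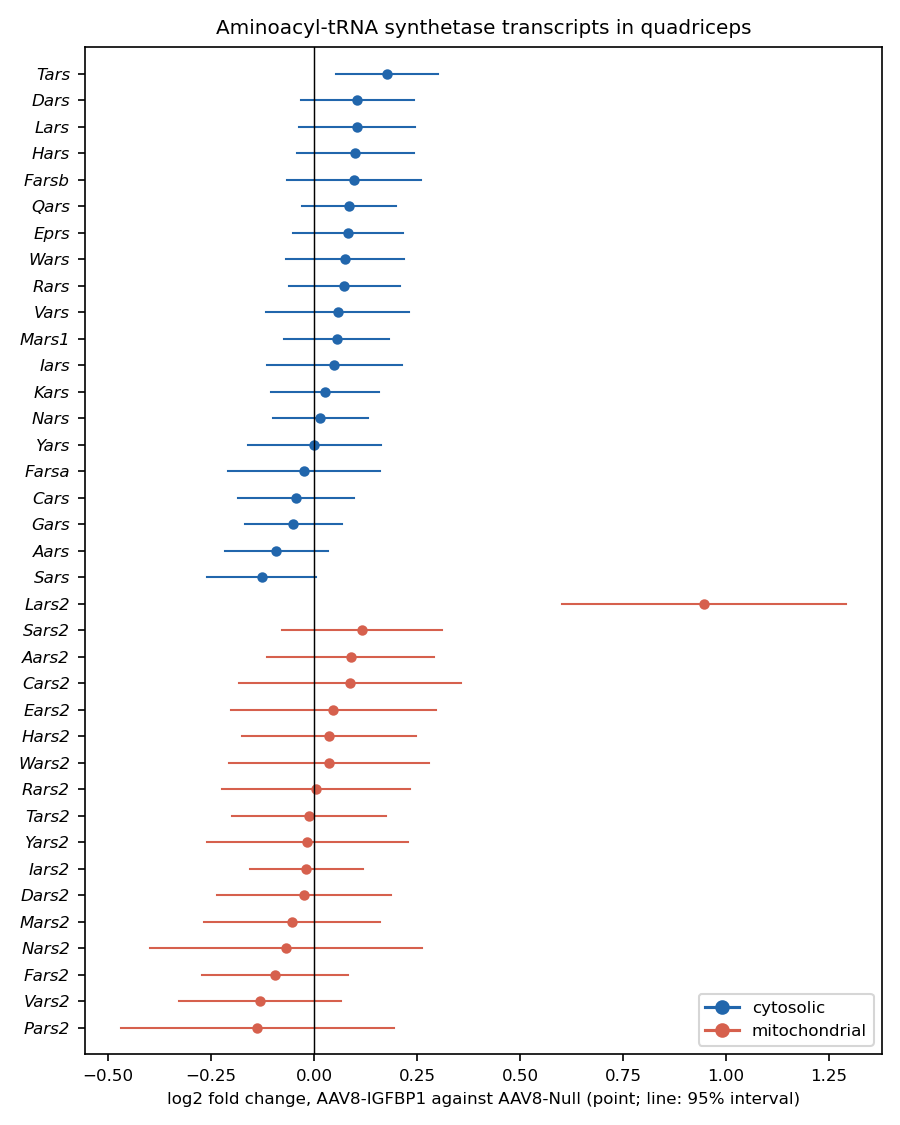
Fitted log2 fold change of each of the 37 synthetase transcripts, AAV8-IGFBP1 (n = 3) against AAV8-Null (n = 4), with its 95% interval as a line. Lars2 stands alone at 0.95, and the other 36 points lie between -0.14 and 0.18.

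Lars2 was counted at 242, 201, 317 and 283 CPM in the AAV8-Null libraries and at 446, 541 and 520 CPM in the AAV8-IGFBP1 libraries. All 3 AAV8-IGFBP1 libraries were above all 4 controls. The means were 261 ± 50.4 CPM (SD, n = 4) and 503 ± 50.1 CPM (SD, n = 3). The log2 fold change was 0.95 with a standard error of 0.15 (95% interval 0.60 to 1.29), an adjusted p of 0.0458 by edgeR's quasi-likelihood test with Benjamini-Hochberg adjustment. A two-sided exact permutation test of the CPM gave p = 0.0286, the smallest that 35 splits of 4 against 3 allow. It restates that the groups do not overlap, as in 12.3% of all genes, and adds no separate support. Lars2 took up 12.7% to 18.2% of all synthetase counts under AAV8-Null and 23.7% to 28.1% under AAV8-IGFBP1. Without Lars2, the mitochondrial members made up 14.3% to 15.8% of the synthetase counts under AAV8-Null and 14.3% to 14.9% under AAV8-IGFBP1.

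The edgeR call of Lars2 rested on single libraries. Leaving out replicate 1 of AAV8-Null gave an adjusted p of 0.15 and leaving out replicate 4 one of 0.0703. Leaving out replicate 1, 2 or 3 of AAV8-IGFBP1 gave 0.0939, 0.154 or 0.116, while the log2 fold change stayed between 0.84 and 1.05 over all 7 such fits.

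Lars2 also had a wide spread among the controls, and its reads were assigned in a way seen in few members. Its coefficient of variation among the controls was 19.3%, against a median of 5.96% over the members and 8.29% over the 10049 genes in the members' range of CPM. Its deposited value was not a whole number, to within 0.01, in any of the 7 libraries, whereas 33 members had whole numbers in every library. The deposited values are estimated counts, in which a read that matches several genes is divided between them. The spliced Lars2 transcript of GENCODE M21 spans chr9:123366927-123462664 on the plus strand of GRCm38, in 21 exons, and has 3894 bases. Its stop codon ends at base 2908, so 986 bases of exon 21 follow as the 3′ untranslated region. In that region, 71 of 72 letters at positions 3278 to 3349 matched a transcript of the antisense gene Gm15564, and 92 of 97 at positions 3233 to 3329 matched AA474408, a gene model whose status is still to be tested. AA474408 also matched 48 of 50 letters at positions 3163 to 3212. A transcript of Eif2b3 matched 35 of 38 at 3768 to 3804, and one of Ifitm10 58 of 70 at 3741 to 3809. The first 30 letters of the longest exact match, 52 letters shared with Gm15564, lie at chr9:123462048-123462077 (GRCm38, plus strand). They are shown because another annotated RNA carries them.

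Lars2, positions 3278 to 3307: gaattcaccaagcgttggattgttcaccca

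Letters of this kind are known from the RNA of the large cytosolic ribosomal subunit, whose sequence was not used here. A resemblance to mitochondrial ribosomal RNA was also looked for, and the longest exact run shared with Lars2 was 12 letters for mt-Rnr2, the 16S RNA, and 14 for mt-Rnr1, the 12S RNA. Gm15564 itself had 7, 12, 6 and 7 counts under AAV8-Null and 15, 13 and 13 under AAV8-IGFBP1. AA474408 had 2, 10, 15 and 4 counts and then 17, 17 and 9, which overlapped.

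Beside Lars2, 10 ribosomal and other structured RNAs were read out, a list chosen after values had been seen. They are RNAs without a poly(A) tail, the run of adenines that ends most messenger RNAs, and mitochondrial ribosomal RNAs. The libraries were made for messenger RNA, and how much of such RNAs was carried through preparation was not measured. A difference in the muscle and a difference in that carry-over cannot be told apart. Metazoa_SRP, the RNA of the signal recognition particle, had 61.8, 44.4, 51.3 and 64.4 CPM under AAV8-Null and 89, 101 and 91.3 CPM under AAV8-IGFBP1, and rose by 0.76 on the log2 scale (edgeR adjusted p = 0.0458). 7SK, a small nuclear RNA that holds back transcription elongation, had 5.07, 4.16, 4.95 and 5.16 CPM and then 6.84, 8.97 and 7.86 CPM, and rose by 0.71 (edgeR adjusted p = 0.0462). These were 2 of 10 called higher by edgeR, against 0.362% of all genes, with 7 of 10 above 0. DESeq2 called 4 of the 10, Metazoa_SRP, 7SK and 5_8S_rRNA higher and mt-Rnr2 lower, and limma-voom called 2, Metazoa_SRP and 5_8S_rRNA. Among all genes, DESeq2 called 447 of 14056 and limma-voom 62 of 14935. When single libraries were left out, 7SK was called in none of the 7 edgeR fits (adjusted p 0.0658 to 0.145), and Metazoa_SRP was called only without replicate 2 or 4 of AAV8-Null (0.0278 to 0.148).

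None of the ribosomal RNAs passed edgeR's test, while DESeq2 called 5_8S_rRNA and mt-Rnr2 and limma-voom called 5_8S_rRNA. Rn18s, the 18S RNA of the small cytosolic ribosomal subunit, had 5791, 6465, 13413 and 8255 CPM under AAV8-Null and 10840, 22104 and 15568 CPM under AAV8-IGFBP1, groups that overlapped (log2 fold change 0.93, edgeR adjusted p = 0.376). The same library, AAV8-Null replicate 3, was highest among the controls in both Rn18s and Lars2, and the order of the AAV8-IGFBP1 libraries was the same for both. AAV8-Null replicate 3 had more Rn18s than AAV8-IGFBP1 replicate 1 and less Lars2. The 5.8S RNA (5_8S_rRNA) had 2.38 to 5.06 CPM under AAV8-Null and 8.12 to 9.31 under AAV8-IGFBP1 (log2 fold change 1.19, edgeR adjusted p = 0.0658). In the mitochondrion, mt-Rnr2 lay the other way, at 2817 to 4543 CPM and 2207 to 2724 CPM (log2 fold change -0.49, edgeR adjusted p = 0.255). With the log2 level of Rn18s as a covariate, a fit chosen after the data were seen, Lars2 had a log2 fold change of 0.60 and an edgeR adjusted p of 0.328, and 4 of all genes were called. With Rn18s itself at a log2 fold change of 0.93, that fit cannot fully separate its level from the group. The part of these RNAs in the difference of Lars2 was not tested.

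**Figure D2:**
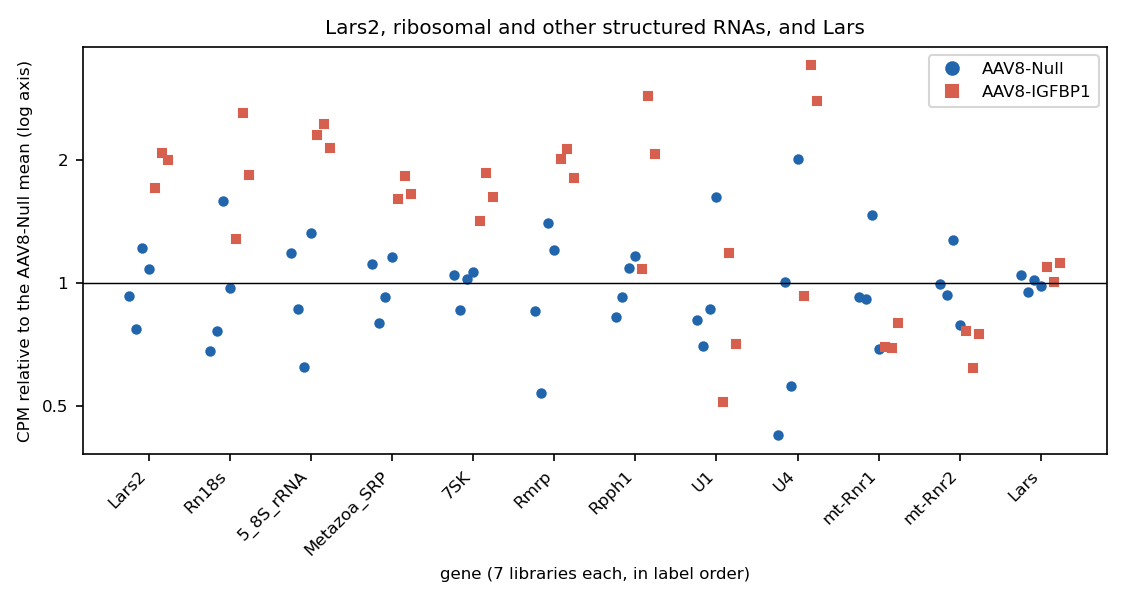
CPM of Lars2, 10 ribosomal or other structured RNAs and Lars, each divided by its AAV8-Null mean, on a log axis, with 1 point per library. The AAV8-IGFBP1 points of Lars2, 5_8S_rRNA, Metazoa_SRP, 7SK and Rmrp lie above every control, those of Rn18s overlap them, those of mt-Rnr2 lie below, and Lars sits near 1.

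Lars, the cytosolic leucyl enzyme, did not pass the test. It had 35.6, 32.2, 34.5 and 33.4 CPM under AAV8-Null and 37.2, 34.2 and 38 CPM under AAV8-IGFBP1. The groups overlapped, and the log2 fold change was 0.11 with a standard error of 0.06 (edgeR adjusted p = 0.543).

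Lars is 1 of the 8 enzymes of the multi-synthetase complex. All 8 complex enzymes lay above 0, at log2 fold changes from 0.03 for the lysyl enzyme Kars to 0.11 for the aspartyl enzyme Dars, with a median of 0.08 and 0 called. At an unadjusted p under 0.05 there were also 0, and DESeq2 and limma-voom called none of them. Of all genes tested, 7449 of 14935 lay above 0. As a mean log2 CPM centred over the 7 libraries, the 8 enzymes stood at -0.0469 to -0.0034 in the controls. In AAV8-IGFBP1 replicates 1, 2 and 3 they stood at 0.0578, -0.0149 and 0.082, so replicate 2 lay within the controls. Dars had 48.3, 49.2, 46.9 and 47.5 CPM under AAV8-Null and 53.5, 47.5 and 53.9 CPM under AAV8-IGFBP1. AAV8-IGFBP1 replicate 2 was within the controls and the other two were above them (log2 fold change 0.11, standard error 0.06, edgeR adjusted p = 0.529). Qars, the glutaminyl enzyme, had 43.2, 45.4, 43.9 and 43.3 CPM and then 46.4, 46.7 and 46.8 CPM. Its groups did not overlap, but the difference was 0.09 on the log2 scale with a standard error of 0.05 (edgeR adjusted p = 0.539). Eprs, which charges both glutamate and proline, had 224 to 248 CPM and 241 to 258 CPM (log2 fold change 0.08, edgeR adjusted p = 0.624). The 3 scaffold proteins of the complex were also without a call, at log2 fold changes of 0.11 for Aimp1 (edgeR adjusted p = 0.447), -0.11 for Aimp2 (0.679) and 0.06 for Eef1e1 (0.89).

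Of the 12 cytosolic members outside the complex, 7 lay above 0 and 5 below, with a median log2 fold change of 0.01. Tars, which charges threonine, had 36.8, 39.8, 39.4 and 37.2 CPM under AAV8-Null and 43, 43.1 and 43.8 CPM under AAV8-IGFBP1. Every AAV8-IGFBP1 library was above every control, and the means were 38.3 ± 1.56 (SD, n = 4) and 43.3 ± 0.441 CPM (SD, n = 3). At a log2 fold change of 0.18 with a standard error of 0.06, Tars did not pass edgeR's quasi-likelihood test (adjusted p = 0.226). Sars, the seryl enzyme, lay lower, at 75.4, 75.6, 76.4 and 71.8 CPM and then 67.7, 64.8 and 72.9 CPM. Its groups overlapped through AAV8-IGFBP1 replicate 3 and AAV8-Null replicate 4 (log2 fold change -0.13, standard error 0.06, edgeR adjusted p = 0.414). The alanyl enzyme Aars had 114 to 118 CPM and 105 to 115 CPM (log2 fold change -0.09, edgeR adjusted p = 0.548).

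Nars, which charges asparagine, was the most abundant cytosolic member per length, at 58.9 ± 1.38 CPM per kilobase of coding sequence (SD, n = 4) in the controls. It had 96.4, 97.3, 102 and 99.5 CPM under AAV8-Null and 102, 97.2 and 100 CPM under AAV8-IGFBP1. These overlapped almost fully, at a log2 fold change of 0.02 with a standard error of 0.05 (edgeR adjusted p = 0.933). The 6 genes known from inherited neuropathies, Aars, Gars, Hars, Mars1, Wars and Yars, lay 4 above and 2 below 0 with a median of 0.03 and 0 called, also at an unadjusted p under 0.05.

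**Figure D3:**
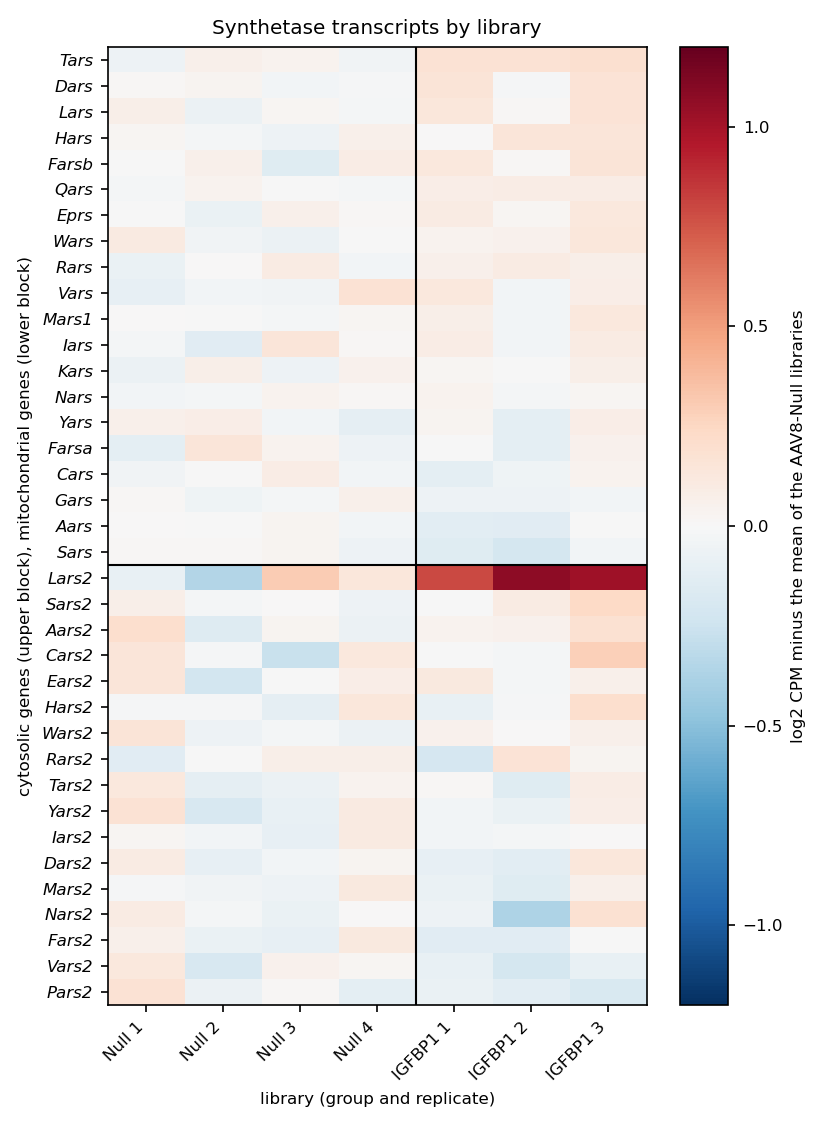
log2 CPM of each synthetase transcript in each of the 7 libraries minus the mean of the 4 AAV8-Null libraries, with cytosolic genes in the upper block and mitochondrial genes in the lower. Lars2 reads 0.79, 1.07 and 1.02 in the AAV8-IGFBP1 libraries, and the Tars row reads 0.17, 0.17 and 0.19.

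Wars, the tryptophanyl enzyme, is known to respond to interferon gamma. Of the interferon-response genes, 17 of 17 lay above 0 and 3 were called higher by edgeR, Irf7, Ifit3 and Bst2, against 0.362% of all genes. DESeq2 called 6, adding Ifit2, Gbp3 and Gbp7, and limma-voom called 2, Irf7 and Bst2. Over all genes tested, DESeq2 called 447 of 14056 and limma-voom 62 of 14935. Irf7 was called without any single library (edgeR adjusted p 0.00181 to 0.0146), and Ifit3 and Bst2 only when replicate 3 of AAV8-IGFBP1 was the one left out (0.0324 to 0.0911 and 0.0496 to 0.113). The level of the 17 genes was 70.8 to 73.7 CPM under AAV8-Null and 94.4 to 148 CPM under AAV8-IGFBP1. Wars had 32, 28.8, 28.1 and 29.6 CPM under AAV8-Null and 30.5, 30.7 and 32.4 CPM under AAV8-IGFBP1. The groups overlapped, with a log2 fold change of 0.07 and a standard error of 0.06 (edgeR adjusted p = 0.692).

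The mitochondrial enzymes other than Lars2 lay 7 above and 9 below 0, with a median log2 fold change of -0.01 and 0 of 16 called, and 0 at an unadjusted p under 0.05. Vars2, the valyl enzyme, had 15.6, 12.5, 14.8 and 14.5 CPM under AAV8-Null and 13.5, 12.4 and 13.5 CPM under AAV8-IGFBP1, which overlapped (log2 fold change -0.13, standard error 0.09, edgeR adjusted p = 0.589). Sars2, the seryl enzyme, had 9.24, 8.66, 8.82 and 8.44 CPM and then 8.75, 9.43 and 10.4 CPM. AAV8-IGFBP1 replicate 1 lay within the controls and the other two above them (log2 fold change 0.12, standard error 0.09, edgeR adjusted p = 0.64). Fars2, the phenylalanyl enzyme, had 17.9, 16.2, 16 and 18.6 CPM and then 15.6, 15.6 and 17.1 CPM. Only AAV8-IGFBP1 replicate 3 reached the range of the controls (log2 fold change -0.09, standard error 0.08, edgeR adjusted p = 0.678). Aars2, the alanyl enzyme, had 22.1, 17.3, 19.7 and 18.3 CPM and then 19.9, 20 and 21.9 CPM, all 3 of them inside the range of the controls (log2 fold change 0.09, standard error 0.09, edgeR adjusted p = 0.742). Mitochondrial members varied more among the controls than cytosolic ones, with median coefficients of variation of 7.41% and 4.19%, and were counted less deeply.

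For 14 amino acids the mitochondrial enzyme could be paired gene for gene with a cytosolic one, and the pairs were compared per kilobase of coding sequence. Phenylalanine, with the cytosolic genes Farsa and Farsb, and glutamate and proline, which share Eprs, were left out. The cytosolic transcript was the higher one in every AAV8-Null library for 13 of 14 pairs. The ratio was widest for asparagine, where Nars was 22.1 ± 1.59 times Nars2 (SD, n = 4), and narrowest among the 13 for isoleucine, where Iars was 1.08 ± 0.128 times Iars2. Leucine was the exception among the 14, since Lars stood at 0.102 ± 0.0185 of Lars2 in the controls and 0.0561 ± 0.00774 (SD, n = 3) under AAV8-IGFBP1. Outside the pairs, Fars2 had a control mean of 12.7 CPM per kilobase, above Farsa at 10.5 and below Farsb at 19. Eprs had 52.3, against 4.05 for Ears2 and 1.49 for Pars2. Per kilobase of coding sequence Lars2 had 96.4 ± 18.6 CPM (SD, n = 4) in the controls and a mean of 186 CPM under AAV8-IGFBP1, above every other member in both groups, while the next mitochondrial enzyme, Iars2, had 19.0 CPM in the controls. Reads that fell in the shared stretches after the stop codon could count toward the value of Lars2, and the table cannot separate them. The ratio did not overlap between the groups in 4 of 14 pairs, a description made after values were seen and not tested. The share among ratios of other genes was not taken, while the CPM of single genes did not overlap in 12.3% of all genes. It was lower under AAV8-IGFBP1 in 2, leucine and serine, and higher in 2, methionine and valine. The ratio of Sars to Sars2 was 8.23 ± 0.246 (SD, n = 4) under AAV8-Null and 6.97 ± 0.454 (SD, n = 3) under AAV8-IGFBP1. The ratio of Mars1 to Mars2 was 3.7 to 4.08 and then 4.12 to 4.4, and that of Vars to Vars2 was 1.63 to 2.13 and then 2.14 to 2.21.

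**Figure D4:**
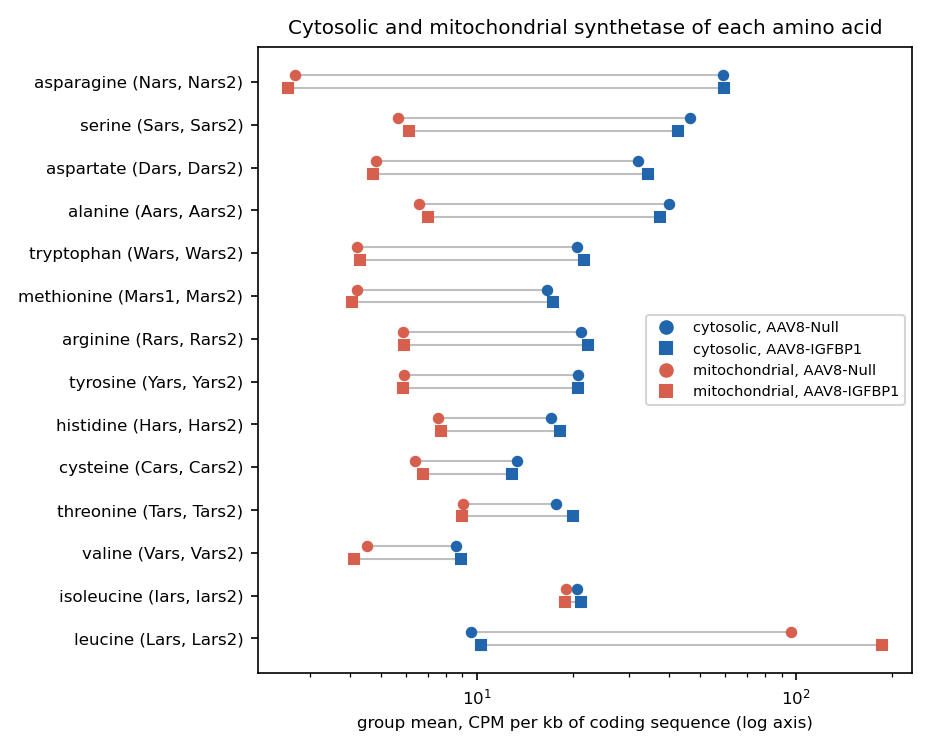
Group mean level of the cytosolic (blue) and mitochondrial (red) synthetase of each of 14 amino acids, in CPM per kilobase of coding sequence on a log axis, with circles for AAV8-Null and squares for AAV8-IGFBP1. The cytosolic enzyme is to the right in every pair other than leucine, where Lars2 is at 96.4 and 186.

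Since many cytosolic synthetases are ATF4 targets, their promoters were searched for TGATGNAA, a core shared by ATF4 sites, on both strands of RefSeq windows (GRCm38.p6) from 250 bases before to 50 bases after each start. The motif and the search were chosen after values had been seen. Promoter entries matched 27 of the 37 members. The motif lay in 5 of 13 cytosolic promoters (38.5%), in 0 of 15 mitochondrial promoters of 14 genes, and in 3.97% of all 32851 promoters of this length. A matched stretch of each of the 5 genes is shown 5′ to 3′ on the gene's strand, with the motif in capitals, because the counts of matches rest on them.

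Aars, chr8:111033840-111033869, plus strand: agcgggtcactTTTCATCAgagcgctctga
Gars, chr6:55037960-55037989, plus strand: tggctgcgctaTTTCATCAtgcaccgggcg
Iars, chr13:49682126-49682155, plus strand: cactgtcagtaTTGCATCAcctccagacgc
Tars, chr15:11399655-11399684, minus strand: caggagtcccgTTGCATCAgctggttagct
Yars, chr4:129189895-129189924, plus strand: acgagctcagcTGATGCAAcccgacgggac

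A match is a description of letters and not a site of binding. The 5 genes with a match did not lie on one side of 0. Their log2 fold changes were 0.18 for Tars, 0.05 for Iars, 0.00 for Yars, -0.05 for Gars and -0.09 for Aars, and none passed edgeR's test.

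ATF4 and its partners in the stress response were likewise without a call, as 7 of 15 signalling genes lay above 0 and 8 below, with 3 at an unadjusted p under 0.05 and 0 called by edgeR, DESeq2 or limma-voom. Atf4 had 121 to 150 CPM under AAV8-Null and 117 to 134 CPM under AAV8-IGFBP1 (log2 fold change -0.12, edgeR adjusted p = 0.595). Atf3, a related stress-induced factor, had 8.5, 9.64, 9.45 and 7.83 CPM and then 1.8, 1.86 and 6.18 CPM. All 3 AAV8-IGFBP1 libraries were below the controls, replicate 3 much less so than the others, and the log2 fold change of -1.43 had an edgeR adjusted p of 0.292. Without that library it was -2.27, with an adjusted p of 0.0014. The C/EBP family factors that pair with ATF4 were at -0.20 for Cebpg (edgeR adjusted p = 0.348) and 0.42 for Cebpb (0.393), and Cebpb was at 0.61 with an adjusted p of 0.0148 without AAV8-Null replicate 3. Atf5, a relative of ATF4, was at -0.18 (edgeR adjusted p = 0.396).

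Of 23 tested ATF4 targets other than synthetases, 11 lay above and 12 below 0, with a median of -0.01, 7 at an unadjusted p under 0.05 and 0 called by edgeR. DESeq2 called 2 of them, Eif4ebp1 and Vldlr, against 447 of 14056 genes in all, and limma-voom called 0. Eif4ebp1, an inhibitor of cap-dependent translation, had 24.6, 21.5, 25.2 and 22.1 CPM under AAV8-Null and 30.3, 32.5 and 28.6 CPM under AAV8-IGFBP1, without overlap (log2 fold change 0.39, edgeR adjusted p = 0.0701). Vldlr, a lipoprotein receptor, was at -0.33 (edgeR adjusted p = 0.144), Gpt2, the mitochondrial alanine aminotransferase, at 0.27 (0.234), and Shmt2, the mitochondrial serine hydroxymethyltransferase, at -0.23 (0.266). These lay on both sides of 0, as the synthetases did.

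The steps around charging showed no call by edgeR either. Of 17 tested accessory genes of tRNA charging, 8 lay above 0 and 9 below, with a median of -0.02 and 1 at an unadjusted p under 0.05, and DESeq2 and limma-voom called 0. That 1 was Mtfmt, which formylates the initiator methionyl-tRNA of mitochondria, at 4.37 to 4.95 CPM under AAV8-Null and 3.67 to 4.34 CPM under AAV8-IGFBP1 (log2 fold change -0.28, edgeR adjusted p = 0.375). Pstk and Sepsecs, which make selenocysteinyl-tRNA, were at -0.15 (0.594) and 0.18 (0.61).

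Downstream of the cytosolic enzymes, 4 of 8 elongation genes lay above 0 and 4 below, with 2 at an unadjusted p under 0.05 and 0 called by edgeR or limma-voom. Eef2k, the kinase that inhibits the translocase eEF2, had 69, 72, 76.7 and 70.7 CPM and then 90.2, 89.8 and 84.1 CPM, without overlap (log2 fold change 0.29, edgeR adjusted p = 0.0711), and DESeq2 called it. Eef1b2, an exchange factor of the tRNA-carrying factor eEF1A, was at 0.18 (edgeR adjusted p = 0.324), Eef2 itself at 0.11 (0.501) and Eef1a1 at 0.14 (0.831), and Eef1a1 was at -0.05 without AAV8-IGFBP1 replicate 2. Of 11 mitochondrial translation factors, 1 lay above 0 and 10 below, with a median of -0.09, 1 at an unadjusted p under 0.05 and 0 called by edgeR, DESeq2 or limma-voom. Tufm, which carries charged tRNA to the mitochondrial ribosome, was at -0.15 (edgeR adjusted p = 0.358), Mrpl58 and Mtrf1l, which act in the release of finished chains, at -0.12 (0.463) and -0.18 (0.528), and the elongation factor Gfm1 at -0.11 (0.574).

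**Figure D5:**
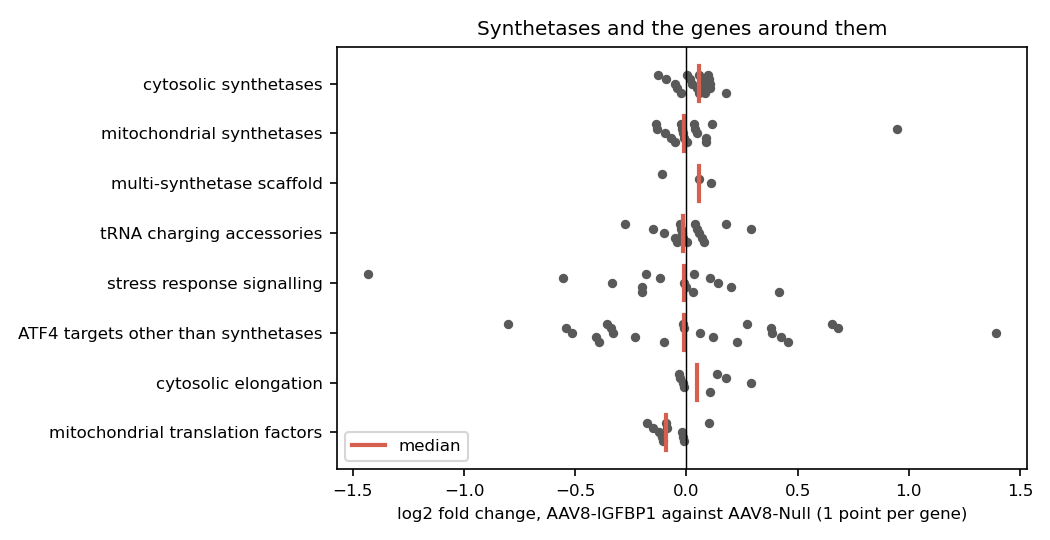
log2 fold change of each tested gene, AAV8-IGFBP1 (n = 3) against AAV8-Null (n = 4), for both sets of synthetases and the 6 lists of genes around them, with 1 point per gene and a bar at each list's median. The medians run from -0.09 for mitochondrial translation factors to 0.06 for cytosolic synthetases and the multi-synthetase scaffold, and the stress and ATF4 target genes spread more widely than the synthetases.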

How the data were processed

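Per the labels' protocols, quadriceps RNA (RNeasy Mini Kit) was made into Universal Plus mRNA-Seq libraries. The submitters' processing notes name GRCm39, Salmon 1.10.1, STAR 2.7.9a, R 4.2.2, Trim Galore 0.6.7 and cutadapt 3.4. The annotation release and strand setting are not given in the sources used here. Values deposited by the authors are estimated counts, gene by gene, in which reads shared between genes are divided. Counts were rounded to whole numbers, filtered with filterByExpr (minimum count 10, minimum total 15), scaled by TMM and tested with edgeR 4.0.16 in R 4.3.3 (glmQLFit, robust, glmQLFTest) on all 7 libraries, adjusted over 14935 genes. CPM use the TMM-scaled library sizes, and log2 CPM a prior count of 2. With 3 counts as a floor, the depth allows 0.0586 to 0.077 CPM per library. No replicates were duplicates within counting noise, with chi-square values over their degrees of freedom of 20.4 to 54.6. DESeq2 1.42.0, limma 3.58.1 (voom), other scalings and filters, left-out libraries and a replicate block were alternatives, and an Rn18s covariate was added after seeing the data. Tests were checked on simulated counts. Coding lengths are the longest coding sequence in GENCODE M21, and Lars2 was aligned to its transcripts with BLAST (word size 16, e-value 0.001).

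The members and lists were chosen with earlier results of these data known. Named in full were the members past the threshold, the 5 cytosolic and 5 mitochondrial members with the lowest unadjusted p, the most abundant per coding length, Wars, and up to 4 genes of each list around them with the lowest p. Lars2 was to be read beside mt-Rnr2 for a presumed shared sequence, which the transcripts did not bear out. Same-numbered replicates deviated together with correlations of -0.098, 0.068 and -0.057, so the numbers do not pair the samples. A gene and a sequence stretch that the naming and search rules would include are not reported here.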

Additional observations from a re-analysis of the deposited data

How the results depend on the processing

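The lowest count of a member in any library was 86. The count of synthetase genes called was 1, and 1 again with DESeq2 size factors, upper-quartile scaling, DESeq2, limma-voom, a stricter count filter and no robust fit. It was 0 with no count filter, with the replicate block and with the Rn18s covariate, and 0 to 1 without single libraries. Lars2 had a log2 fold change of 0.95 with no count filter (edgeR adjusted p = 0.0961), 1.01 with the replicate block (0.12), 0.60 with the Rn18s covariate (0.328), and 0.84 to 1.05 without single libraries. With no count filter 27257 genes were tested in place of 14935, and otherwise the cause was not tested. The cytosolic median log2 fold change was 0.0702 and the mitochondrial 0.0672 with the Rn18s covariate, and without single libraries they ran from 0.035 to 0.0813 and from -0.05 to 0.05. Over all genes, 83 were called, against 447 by DESeq2, 306 with no count filter, 19 with the replicate block, 4 with the covariate and 19 to 86 without single libraries. The replicate block is a hint only, since the numbers do not pair the samples, and under it 7SK (adjusted p = 0.21), Metazoa_SRP (0.124), Ifit3 (0.159) and Bst2 (0.178) were also not called, while Irf7 was (0.0403). Of these 5, limma-voom did not call 7SK (0.0627) and Ifit3 (0.0535), and the stricter filter (0.0501) and the fit without robust (0.0569) did not call 7SK, and the Rn18s covariate fit called none of them (0.0637 for Irf7, the lowest). Among the other genes named by rule, 499 of the alternative values kept their direction and side of the threshold. Without single libraries, Eef1e1 ran from -0.0029 (AAV8-IGFBP1 replicate 3 left out) to 0.1478 and Eef1a1 from -0.054 (AAV8-IGFBP1 replicate 2 left out) to 0.349, cause not tested, and 8 values passed the threshold that had not. They were Atf3 and Cebpb as given above, and Eif4ebp1 (adjusted p 0.00352 and 0.00494), Vldlr (0.0181 and 0.0178) and Eef2k (0.00216 and 0.0222) with DESeq2 and with no count filter.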

Other observations

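Among the ATF4 targets, Chac1 and Slc7a5, chosen after their values were seen, lay farthest from 0 on either side. Chac1, which degrades glutathione, had 9.46, 37.9, 12.7 and 22.9 CPM under AAV8-Null and 87.6, 34.4 and 41.5 CPM under AAV8-IGFBP1, groups that overlapped (log2 fold change 1.39, edgeR adjusted p = 0.427). Slc7a5, a transporter of large neutral amino acids such as leucine, had 1.25, 1.57, 2.17 and 1.09 CPM and then 0.695, 0.943 and 0.974 CPM, without overlap (log2 fold change -0.80, edgeR adjusted p = 0.282). Neither passed the test. No synthetase had a library that stood apart from the other controls by Dixon's criterion for groups of 4, in 37 genes tested.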
